A study of Mus musculus with 16 samples.

Results

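The DNA replication machinery was followed through 45 genes, chosen by name for their roles at the replication origin and fork and in the supply of its nucleotides. All 45 were found on the array, on 62 probes, among 15399 genes tested. The members fall into 9 subgroups: origin licensing (6 genes), the replicative helicase (12), its activating kinase (2), DNA polymerases (8), the sliding clamp and its loader (6), single-strand binding (3), joining of Okazaki fragments (2), nucleotide supply (4) and maintenance of DNA methylation (2). Expression was measured in B16-BL6 tumours, an invasive line of mouse melanoma, grown in male C57BL/6J mice aged 8 weeks. Each of 4 groups held 4 tumours: untreated control, 5-aminolevulinic acid (ALA) at 50 mg per kg given locally, X-ray given in fractions, and ALA before each fraction of X-ray, called the combination. ALA is the heme precursor from which cells make the photosensitiser protoporphyrin IX, and the series asks what it adds to radiotherapy. The radiation dose and the time of sampling are not given in the sources used here.

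Replication starts when the origin recognition complex, Cdc6 and Cdt1 load rings of Mcm proteins on chromatin in G1, and the Cdc7 kinase with its activator Dbf4, together with Cdc45 and the GINS complex, then turns the rings into the moving helicase. Polymerase alpha with primase lays the primers, polymerases delta and epsilon copy the strands on the Pcna clamp that replication factor C loads, and Fen1 and Lig1 finish the lagging strand. Transcription of many of these genes is driven by E2F factors as cells enter S phase and is held down when p53, through p21, keeps the pocket proteins active, so their messages are commonly read as a sign of cycling cells.

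Messages of the replication machinery read lower in irradiated than in unirradiated tumours. In X-ray against control the log2 fold change was below 0 for 45 of 45 members, where 52.7% of all genes tested were below 0, and its median over the members was -0.66, against -0.02 over all genes. The limma test of single genes called 9 members lower and 0 higher at a Benjamini-Hochberg adjusted p under 0.05 (20% of the members, where 1.38% of all genes were called lower, 1.99% higher and 3.37% in either direction), while the 4 X-ray tumours lay below the 4 control tumours without overlap in 34 members (10.5% of all genes). In the combination against control 45 members were again below 0 (56.5% of all genes) and the median was -0.95, against -0.08 over all genes. There 42 members were called lower and 0 higher (93.3% of the members, against 15.1% of all genes lower, 9.77% higher and 24.9% in either direction), and 36 had no overlap between the groups (11.6% of all genes). The combination against ALA gave a median of -0.88, with 39 members lower and 0 higher (86.7%, against 13.4% of all genes lower and 24.1% in either direction), all 45 below 0 (61.1% of all genes) and 22 without overlap (11.5% of all genes). In limma, 0 of 45 members passed in the combination against X-ray (2.07% of all genes, 0.766% lower and 1.3% higher), with 5 at an unadjusted p under 0.05 (13% of all genes were lower at that p), and 0 passed in ALA against control (0% of all genes), with 0 at an unadjusted p under 0.05 (2.17% of all genes lower).

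These are bulk tumours, in which fewer cells of a type and less RNA per cell cannot be told apart. All 45 members were well above background on all 16 arrays with the probe shown, and none was saturated. The 75th percentile of the processed signal ran from 213 to 521 over the arrays, and 44.3% to 53.6% of spots were well above background. The 4 arrays of a replicate number, 1 from each group, shared a slide, and every group kept its own place there, so place and group cannot be told apart. The labels call each sample a tumour preparation of its own, and p-values measure the spread between these preparations. The 8 melanocyte markers were above background on all 16 arrays, with a summed level on the log2 scale of 9.96 to 10.20 in control, 10.04 to 10.16 with ALA, 10.12 to 10.32 with X-ray and 9.85 to 10.34 with the combination, so the sums overlapped. In the combination against control 1 of the 8 was called lower and 1 higher, with differences from -0.83 to 0.51.

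**Figure D1:**
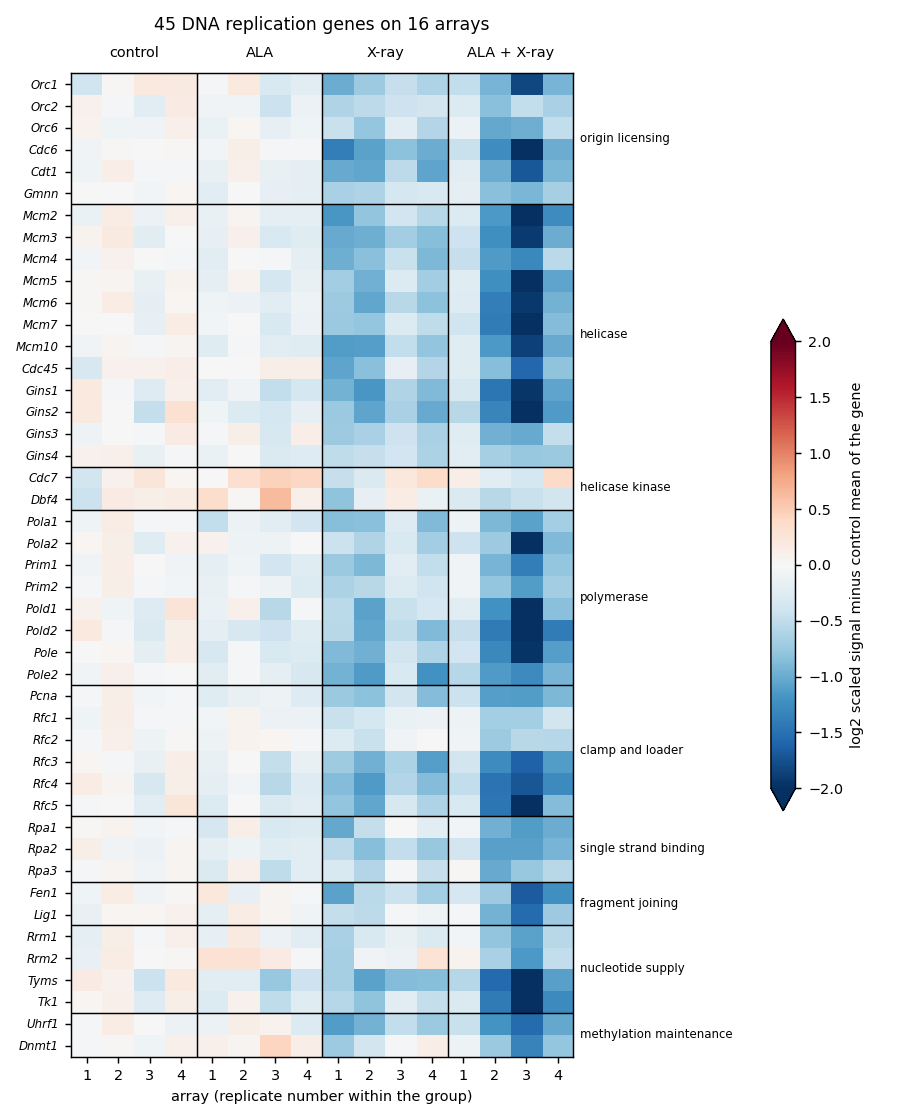
Heat map of the 45 replication genes (rows, by subgroup) on the 16 arrays (columns, by group and replicate number); the colour is the log2 scaled signal minus the gene's control mean, and values beyond 2 in size take the end colour. Blue, for lower levels, fills most of the columns of X-ray and of the combination, least so in Cdc7 and Dbf4, and it is palest in replicate 1 of the combination and deepest in replicate 3.

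RefSeq windows of 250 bases before the transcription start (build GRCm38.p6) were found for 37 of the 45 members. The letters of an E2F site (TTTCCCGC, TTTGGCGC, TTTGCCGC or TTTCGCGC, on either strand) lay in a window of 10 of the 37 members, or 27%, against 2.2% of the 27025 genes in the table and 18.9% of 37 other replication genes. A gene with several starts has a window for each, and any match counts. By window the shares were 21.3% of 47 for the members and 1.9% of 32851 for all genes. In Dnmt1 and Uhrf1 the match lies at a downstream start and not at the most upstream one. The CCAAT letters, the core of the box that NF-Y binds, lay in 24 members, or 64.9%, against 37.5% of all genes and 40.5% of the 37 other replication genes. The TTTGAA letters of the cell cycle homology region lay in 7 members, or 18.9%, against 18.3% of all genes and 18.9% of the 37 other replication genes. Such matches are letters and not sites shown to be bound, and their absence from a window says nothing of the factor. The 10 members with E2F letters are shown in stretches of 30 bases, 5′ to 3′ on the gene's strand, with the matched letters in capitals; in Mcm6 and Mcm5, TTTGGCGC and TTTCGCGC overlap on opposite strands and are shown joined.
Mcm6, chr1:128359795-128359824, minus strand: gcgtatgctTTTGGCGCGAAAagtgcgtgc
Mcm6, chr1:128359734-128359763, minus strand: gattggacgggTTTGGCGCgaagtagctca
Orc1, chr4:108579416-108579445, plus strand: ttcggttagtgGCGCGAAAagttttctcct
Mcm7, chr5:138172030-138172059, minus strand: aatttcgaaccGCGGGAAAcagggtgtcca
Rfc3, chr5:151651209-151651238, minus strand: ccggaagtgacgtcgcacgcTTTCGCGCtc
Mcm5, chr8:75109347-75109376, plus strand: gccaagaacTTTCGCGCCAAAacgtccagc
Gins3, chr8:95633507-95633536, plus strand: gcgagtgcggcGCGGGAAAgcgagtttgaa
Dnmt1, chr9:20952824-20952853, minus strand: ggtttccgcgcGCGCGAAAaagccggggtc
Cdc6, chr11:98908002-98908031, plus strand: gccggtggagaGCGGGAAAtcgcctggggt
Uhrf1, chr17:56304117-56304146, plus strand: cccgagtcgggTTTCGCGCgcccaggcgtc
Pola1, chrX:93632275-93632304, minus strand: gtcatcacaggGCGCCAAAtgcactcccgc
The 10 members with these letters had a median log2 fold change of -0.70 in X-ray against control (range -1.06 to -0.25), with 2 of 10 called lower, and -1.07 in the combination against control, with 10 of 10. In the 27 members without them the medians were -0.60 and -0.89, and 5 and 24 of the 27 were called lower.

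The promoters of 5 genes that are given tumour by tumour below are printed whole: Orc1, Mcm7, Mcm2, Pcna and Rrm2. Matched E2F, CCAAT and TTTGAA letters are in capitals, and each window is that of the most upstream start in the table.
Orc1, chr4:108579204-108579453, plus strand: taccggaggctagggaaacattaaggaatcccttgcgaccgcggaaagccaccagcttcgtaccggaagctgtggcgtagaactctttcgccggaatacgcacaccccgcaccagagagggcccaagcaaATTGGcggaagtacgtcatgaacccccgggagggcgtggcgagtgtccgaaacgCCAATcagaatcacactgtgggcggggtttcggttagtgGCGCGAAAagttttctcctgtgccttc
Mcm7, chr5:138171884-138172133, minus strand: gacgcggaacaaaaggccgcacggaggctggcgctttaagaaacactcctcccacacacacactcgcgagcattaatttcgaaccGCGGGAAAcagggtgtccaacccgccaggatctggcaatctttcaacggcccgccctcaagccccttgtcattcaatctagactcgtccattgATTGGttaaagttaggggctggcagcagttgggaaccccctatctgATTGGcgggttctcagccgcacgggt
Mcm2, chr6:88898781-88899030, minus strand: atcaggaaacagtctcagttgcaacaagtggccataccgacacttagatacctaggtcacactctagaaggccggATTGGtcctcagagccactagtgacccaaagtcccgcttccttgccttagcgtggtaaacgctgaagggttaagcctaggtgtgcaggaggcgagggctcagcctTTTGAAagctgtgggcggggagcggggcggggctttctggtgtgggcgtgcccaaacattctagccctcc
Pcna, chr2:132253181-132253430, minus strand: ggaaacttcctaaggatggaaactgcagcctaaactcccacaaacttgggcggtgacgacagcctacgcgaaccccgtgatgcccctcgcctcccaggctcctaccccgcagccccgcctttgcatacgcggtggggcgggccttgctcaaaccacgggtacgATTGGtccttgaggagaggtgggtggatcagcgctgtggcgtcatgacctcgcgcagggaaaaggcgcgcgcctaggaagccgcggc
Rrm2, chr12:24708004-24708253, plus strand: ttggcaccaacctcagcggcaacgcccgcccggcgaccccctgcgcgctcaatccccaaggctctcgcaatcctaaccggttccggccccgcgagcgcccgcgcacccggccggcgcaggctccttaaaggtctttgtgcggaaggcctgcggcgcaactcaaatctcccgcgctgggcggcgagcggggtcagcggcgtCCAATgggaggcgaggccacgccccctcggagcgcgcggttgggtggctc
Orc1 carries E2F letters 27 bases before its start and CCAAT letters, read on either strand, at 120 and 66. Mcm7 carries E2F letters at 165 bases and CCAAT letters at 72 and 26. Mcm2 holds CCAAT letters at 175 and TTTGAA at 70, Pcna CCAAT letters at 87 and Rrm2 at 50, and none of these 3 windows holds the E2F letters searched. Probe positions given below are those of the array annotation (mm9) and are not on the same build as these windows.

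Levels are given as log2 processed signal minus the array's 75th percentile, so 0 is a gene at that percentile, and they compare tumours for 1 gene and not genes with each other. Values run from replicate 1 to 4. The origin licensing genes, which mark and load origins, had a mean level against control of -0.69 ± 0.17 (SD, n = 4) with X-ray and -0.85 ± 0.45 with the combination, and -0.10 ± 0.12 with ALA. Of 6 genes, 1 was called lower in X-ray against control and 6 of 6 in the combination against control, with no overlap between the groups in any of the 6 in either comparison. Cdt1, which brings Mcm rings to origins and is degraded once S phase starts (probe on chromosome 8, 125096893 to 125096952), read 4.92, 5.15, 4.99 and 4.99 in control, 4.85, 5.11, 4.87 and 4.81 with ALA, 4.00, 3.96, 4.49 and 3.96 with X-ray and 4.80, 4.02, 3.31 and 4.09 with the combination. The X-ray tumours lay below all control tumours, with replicate 3 well above the other X-ray tumours. Its log2 fold change was -0.91 (SE 0.23, adjusted p = 0.0485) with X-ray and -0.95 (SE 0.23, adjusted p = 0.0126) with the combination, and the combination against X-ray gave -0.05 with a 95% interval of -0.55 to 0.45. Orc1, a subunit of the origin recognition complex (probe on chromosome 4, 108284772 to 108285679), read -2.27, -1.86, -1.69 and -1.70 in control, -1.91, -1.68, -2.18 and -2.09 with ALA, -2.87, -2.61, -2.34 and -2.49 with X-ray and -2.37, -2.80, -3.69 and -2.80 with the combination. Both irradiated groups lay below all control tumours, with log2 fold changes of -0.70 (SE 0.24, adjusted p = 0.105) and -1.04 (SE 0.24, adjusted p = 0.00992). Orc6, another subunit of that complex, had the largest p of the 6 in the combination against control and read 4.14, 3.99, 4.01 and 4.17 in control, 3.95, 4.12, 3.91 and 3.99 with ALA, 3.63, 3.30, 3.87 and 3.49 with X-ray and 3.96, 3.06, 3.11 and 3.58 with the combination. It fell by 0.65 there (adjusted p = 0.0202), and replicate 1 of that group stood just under the control tumours. Cdc6, the loader's ATPase, had the largest X-ray difference of all 45 members, -1.06 (SE 0.28, adjusted p = 0.0502), which did not pass. It fell in the combination, -1.25 (adjusted p = 0.00876). In a limma fit of all probes past the filter, a second probe of Cdc6 gave -1.54 (adjusted p = 0.0245) and -1.55 (adjusted p = 0.00506). Both passed, while the shown probe had an adjusted p of 0.055 with X-ray in that fit. Orc2 and Gmnn, which encodes the Cdt1 inhibitor geminin, had -0.48 (adjusted p = 0.0665) and -0.48 (adjusted p = 0.0798) with X-ray and fell in the combination, -0.56 (adjusted p = 0.0122) and -0.65 (adjusted p = 0.00942).

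The helicase genes showed the deepest subgroup means, -0.73 ± 0.20 with X-ray and -1.04 ± 0.61 with the combination (SD, n = 4), against -0.14 ± 0.09 with ALA. With X-ray 2 of 12 were called lower, Mcm4 and Gins4, and with the combination 12 of 12 were. The 6 genes of the Mcm2 to Mcm7 ring spanned -0.88 to -0.58 with X-ray and -1.27 to -0.85 with the combination. Mcm4 (probe on chromosome 16, 15624372 to 15624431) read 4.68, 4.82, 4.74 and 4.71 in control, 4.53, 4.74, 4.71 and 4.56 with ALA, 3.77, 3.91, 4.29 and 3.84 with X-ray and 4.27, 3.61, 3.45 and 4.20 with the combination. Both irradiated groups were below all control and all ALA tumours, and they overlapped each other. Mcm4 fell by log2 0.79 with X-ray (SE 0.17, 1.73-fold, adjusted p = 0.0319) and 0.85 with the combination (adjusted p = 0.00648). Mcm2 (probe on chromosome 6, 88833619 to 88833678) read 3.59, 3.87, 3.60 and 3.83 in control, 3.57, 3.78, 3.54 and 3.52 with ALA, 2.56, 2.94, 3.33 and 3.15 with X-ray and 3.45, 2.57, 1.33 and 2.46 with the combination. The 4 X-ray values lay below the control values, and the combination values spread from just under control to far below it. Its log2 fold change was -0.73 (SE 0.32, adjusted p = 0.195) with X-ray, which did not pass, and -1.27 (SE 0.32, adjusted p = 0.0134) with the combination, a 2.41-fold difference.

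Mcm7 (probe on chromosome 5, 138605925 to 138605984) had the smallest p of the helicase genes between the irradiated groups. It read 5.00, 4.99, 4.82 and 5.14 in control, 4.93, 4.98, 4.69 and 4.87 with ALA, 4.25, 4.22, 4.71 and 4.48 with X-ray and 4.59, 3.59, 2.72 and 4.12 with the combination. Replicates 2, 3 and 4 with the combination lay below all X-ray tumours and replicate 1 lay within them. The difference between the irradiated groups was -0.66 (95% interval -1.27 to -0.05, adjusted p = 0.189) and did not pass. Against control Mcm7 gave -0.58 (adjusted p = 0.258) with X-ray and -1.23 (adjusted p = 0.0103) with the combination. Cdc45, the helicase cofactor, read -0.09, 0.31, 0.32 and 0.36 in control, 0.23, 0.21, 0.35 and 0.35 with ALA, -0.83, -0.61, 0.06 and -0.36 with X-ray and -0.01, -0.63, -1.35 and -0.58 with the combination. Control replicate 1 sat apart from the other control tumours and overlapped the irradiated ones. It gave -0.66 (adjusted p = 0.127) and -0.87 (adjusted p = 0.0201). The GINS genes, whose products tie Cdc45 to the Mcm ring, gave -0.90 (adjusted p = 0.0697) (Gins1), -0.86 (adjusted p = 0.077) (Gins2), -0.61 (adjusted p = 0.059) (Gins3) and -0.50 (adjusted p = 0.0461) (Gins4) with X-ray, and all 4 fell in the combination, by 0.60 (Gins4) to 1.28 (Gins2). Mcm3, Mcm5, Mcm6 and Mcm10, of which the last helps to open the origin, had -0.88 (adjusted p = 0.0523), -0.66 (adjusted p = 0.239), -0.78 (adjusted p = 0.0948) and -0.88 (adjusted p = 0.0657) with X-ray and fell in the combination by 1.14, 1.23, 1.13 and 1.07.

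The kinase that activates the helicase did not share these calls. Cdc7, its catalytic subunit, gave -0.04 (adjusted p = 0.937) with X-ray and -0.01 (adjusted p = 0.972) with the combination, with 95% intervals of -0.50 to 0.42 and -0.47 to 0.44. Its second measured probe, dimmer and above background on 12 arrays (1 of 4 with X-ray), gave -0.77 and -0.98, so the probes of Cdc7 disagree. With the percentile taken over the spots that every array detected, the shown probe gave 0.02 and 0.05, so the sign of Cdc7 turned with the scaling. Dbf4, its activating subunit (probe on chromosome 5, 8397489 to 8397548), read 0.39, 0.99, 0.93 and 0.96 in control, 1.16, 0.84, 1.45 and 0.93 with ALA, 0.01, 0.66, 0.96 and 0.69 with X-ray and 0.53, 0.26, 0.37 and 0.44 with the combination. The control and the combination values overlapped through control replicate 1 alone. Dbf4 gave -0.24 (adjusted p = 0.519) and -0.42 (adjusted p = 0.136) against control and fell against ALA, -0.69 (adjusted p = 0.0248), where the groups did not overlap.

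The polymerase genes had mean levels of -0.65 ± 0.23 with X-ray, -0.998 ± 0.60 with the combination and -0.20 ± 0.09 with ALA (SD, n = 4). Of 8 genes, 1 was called lower with X-ray and 8 of 8 with the combination, and all 8 lay below control without overlap with X-ray. Pole2, an accessory subunit of polymerase epsilon (probe on chromosome 12, 70307465 to 70308864), read 1.05, 1.21, 1.10 and 1.10 in control, 0.90, 1.08, 0.93 and 0.79 with ALA, 0.17, -0.01, 0.82 and -0.10 with X-ray and 0.55, -0.02, -0.16 and 0.18 with the combination. X-ray replicate 3 stood above the other 3 X-ray tumours but below control. Pole2 fell by 0.90 with X-ray (SE 0.19, adjusted p = 0.0281) and by 0.98 with the combination (adjusted p = 0.00512). Pold2, an accessory subunit of polymerase delta (probe on chromosome 11, 5773086 to 5773145), read 2.41, 2.18, 1.92 and 2.32 in control, 2.01, 1.89, 1.79 and 1.97 with ALA, 1.65, 1.16, 1.70 and 1.33 with X-ray and 1.74, 0.79, -0.65 and 0.80 with the combination. Replicate 3 of the combination was the lowest of the 16 by a wide margin. Its fall of 1.53 in the combination against control, 2.9-fold (SE 0.35, adjusted p = 0.00942), was the largest of all 45 members, and against X-ray it gave -0.79 (95% interval -1.53 to -0.05, adjusted p = 0.192). Pold1, the catalytic subunit of polymerase delta, read 3.99, 3.83, 3.65 and 4.17 in control, 3.78, 4.02, 3.36 and 3.89 with ALA, 3.37, 2.85, 3.46 and 3.56 with X-ray and 3.70, 2.70, 1.61 and 3.08 with the combination. Replicate 1 of the combination lay within the control range. It gave -0.60 (adjusted p = 0.309) with X-ray and -1.14 (adjusted p = 0.0246) with the combination. Pole, the catalytic subunit of polymerase epsilon, gave -0.71 (adjusted p = 0.112) and -1.18 (adjusted p = 0.00702). Of the polymerase alpha and primase genes, Pola1 gave -0.71 (adjusted p = 0.059) and -0.69 (adjusted p = 0.0221), Pola2 -0.51 (adjusted p = 0.251) and -1.003 (adjusted p = 0.0134), Prim1 -0.59 (adjusted p = 0.135) and -0.79 (adjusted p = 0.0202), and Prim2 -0.46 (adjusted p = 0.134) and -0.66 (adjusted p = 0.0156). Pola1 was one of the 2 members, with Cdc7, whose mean was lowest with X-ray alone and not with the combination.

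The clamp and its loader had mean levels of -0.59 ± 0.18 with X-ray, -0.89 ± 0.43 with the combination and -0.15 ± 0.10 with ALA (SD, n = 4). Of the 6 genes, 3 were called lower with X-ray (Pcna, Rfc3 and Rfc4) and 6 with the combination. Pcna, the clamp (probe on chromosome 2, 132075420 to 132075557), read 6.15, 6.29, 6.12 and 6.16 in control, 5.93, 6.04, 6.08 and 5.92 with ALA, 5.44, 5.36, 5.81 and 5.32 with X-ray and 5.75, 5.09, 5.07 and 5.28 with the combination. The 8 irradiated tumours lay below the 8 others. Pcna fell by 0.70 with X-ray (SE 0.15, 1.62-fold, adjusted p = 0.0294) and by 0.89 with the combination (1.85-fold, adjusted p = 0.00312), and the irradiated groups differed by -0.19 (95% interval -0.51 to 0.13). Rfc2, a small loader subunit (probe on chromosome 5, 135074132 to 135074191), read 5.43, 5.56, 5.34 and 5.47 in control, 5.34, 5.52, 5.49 and 5.41 with ALA, 5.18, 5.00, 5.37 and 5.46 with X-ray and 5.38, 4.72, 4.89 and 4.88 with the combination. The X-ray and control values overlapped, and replicates 2, 3 and 4 of the combination were the lowest. Rfc2 gave -0.20 (adjusted p = 0.445) with X-ray and -0.49 (adjusted p = 0.0245) with the combination. Rfc1, the large loader subunit, read 3.23, 3.45, 3.29 and 3.29 in control, 3.26, 3.38, 3.19 and 3.19 with ALA, 2.86, 2.96, 3.19 and 3.20 with X-ray and 3.22, 2.64, 2.63 and 2.95 with the combination. Its irradiated tumours lay below control with small gaps, at -0.26 (adjusted p = 0.282) and -0.45 (adjusted p = 0.0278). Rfc3 and Rfc4 fell by 0.85 (adjusted p = 0.0425) and 0.86 (adjusted p = 0.0485) with X-ray, and Rfc5 gave -0.69 (adjusted p = 0.164). With the combination these 3 fell by 1.09, 1.24 and 1.16.

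The single-strand binding genes, whose products form replication protein A, had means of -0.48 ± 0.21 with X-ray and -0.74 ± 0.42 with the combination. Rpa2 (probe on chromosome 4, 132333869 to 132333929) was the 1 of 3 called lower with X-ray and read 2.23, 2.03, 2.00 and 2.16 in control, 1.92, 2.00, 1.86 and 1.89 with ALA, 1.58, 1.25, 1.62 and 1.35 with X-ray and 1.74, 1.01, 1.01 and 1.17 with the combination. The irradiated tumours lay below all others. It fell by 0.66 (SE 0.15, adjusted p = 0.0349) with X-ray and 0.87 (adjusted p = 0.00351) with the combination. Rpa1 read 4.05, 4.10, 3.98 and 4.00 in control, 3.69, 4.17, 3.73 and 3.76 with ALA, 3.01, 3.55, 4.03 and 3.80 with X-ray and 3.97, 3.08, 2.91 and 3.03 with the combination. X-ray replicate 3 reached the control range, and replicate 1 of the combination lay well above the other 3. Rpa1 gave -0.43 (adjusted p = 0.305) and -0.78 (adjusted p = 0.0282), and Rpa3 -0.35 (adjusted p = 0.325) and -0.57 (adjusted p = 0.0477). For the fragment joining genes the means were -0.48 ± 0.23 and -0.90 ± 0.58. The flap nuclease gene Fen1 read 1.68, 1.91, 1.69 and 1.79 in control, 1.98, 1.59, 1.82 and 1.73 with ALA, 0.70, 1.22, 1.34 and 1.08 with X-ray and 1.43, 1.04, 0.10 and 0.54 with the combination. The irradiated tumours lay below the unirradiated ones, with -0.68 (adjusted p = 0.103) and -0.99 (adjusted p = 0.0105). The ligase gene Lig1 (probe on chromosome 7, 13896609 to 13896667) read 4.43, 4.62, 4.62 and 4.66 in control, 4.38, 4.72, 4.63 and 4.51 with ALA, 4.10, 4.06, 4.55 and 4.50 with X-ray and 4.55, 3.64, 3.05 and 3.85 with the combination. X-ray replicates 3 and 4 lay in the control range, as did replicate 1 of the combination. Lig1 gave -0.28 (adjusted p = 0.523) with X-ray, -0.81 (adjusted p = 0.025) with the combination and -0.53 (95% interval -1.03 to -0.02, adjusted p = 0.198) between the irradiated groups.

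The nucleotide supply genes had means of -0.47 ± 0.16 for X-ray and -0.96 ± 0.61 for the combination (SD, n = 4). None of 4 was called lower with X-ray in limma, with 1 at an unadjusted p under 0.05, and 3 of 4 were with the combination. Tyms, the thymidylate synthase (probe on chromosome 5, 30387605 to 30387664), read 5.77, 5.68, 5.17 and 5.79 in control, 5.37, 5.38, 4.85 and 5.19 with ALA, 4.93, 4.53, 4.73 and 4.75 with X-ray and 5.04, 4.05, 3.61 and 4.51 with the combination. The 4 X-ray values lay below control, and replicate 1 of the combination just below the lowest control. Tyms gave -0.87 (adjusted p = 0.0698) and -1.30 (adjusted p = 0.00533). Tk1, the thymidine kinase of S phase (probe on chromosome 11, 117677105 to 117677164), read 4.47, 4.53, 4.18 and 4.55 in control, 4.16, 4.53, 3.93 and 4.18 with ALA, 3.85, 3.63, 4.21 and 3.95 with X-ray and 4.14, 3.02, 1.93 and 3.16 with the combination. The X-ray values overlapped control through replicate 3, and 3 tumours of the combination lay below every other array. Tk1 gave -0.52 (adjusted p = 0.376) with X-ray, -1.37 (adjusted p = 0.0116) with the combination, and -0.85 between them (95% interval -1.54 to -0.15, adjusted p = 0.148), the largest difference of the 45 members in that comparison. Rrm2, the S-phase subunit of ribonucleotide reductase (probe on chromosome 12, 25398619 to 25398674), read 2.92, 3.21, 3.06 and 3.09 in control, 3.36, 3.37, 3.24 and 3.03 with ALA, 2.41, 3.00, 2.96 and 3.35 with X-ray and 3.14, 2.42, 1.93 and 2.58 with the combination. X-ray replicate 4 was higher than every control tumour and replicate 1 lower, so the X-ray and control groups overlapped. Rrm2 gave -0.14 (adjusted p = 0.755) with X-ray and -0.55 (adjusted p = 0.0848) with the combination, neither of which passed, and fell against ALA, -0.73 (adjusted p = 0.0316). Rrm1, the large subunit, gave -0.35 (adjusted p = 0.294) and -0.62 (adjusted p = 0.0284).

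Of the methylation maintenance genes 1 of 2 was called lower with X-ray and 2 of 2 with the combination. Uhrf1, which reads hemimethylated DNA at the fork (probe on chromosome 17, 56462657 to 56462716), read 3.83, 4.01, 3.87 and 3.76 in control, 3.74, 3.99, 3.94 and 3.60 with ALA, 2.75, 2.92, 3.38 and 3.12 with X-ray and 3.42, 2.67, 2.32 and 2.84 with the combination. The irradiated tumours lay below all others. Uhrf1 fell by 0.83 with X-ray (SE 0.20, adjusted p = 0.0392) and by 1.06 with the combination (adjusted p = 0.00496). Dnmt1, the maintenance methyltransferase (probe on chromosome 9, 20711973 to 20712341), read 1.89, 1.94, 1.83 and 2.03 in control, 2.02, 1.97, 2.34 and 2.05 with ALA, 1.19, 1.56, 1.89 and 2.05 with X-ray and 1.81, 1.18, 0.58 and 1.15 with the combination. X-ray replicate 3 lay in the control range and replicate 4 just above it, whereas all 4 values of the combination lay below it. Dnmt1 gave -0.25 (adjusted p = 0.554) with X-ray and -0.74 (adjusted p = 0.0294) with the combination. Its interaction of ALA and X-ray, -0.67 (adjusted p = 0.272), had the smallest adjusted p of the 45 members and did not pass.

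**Figure D2:**
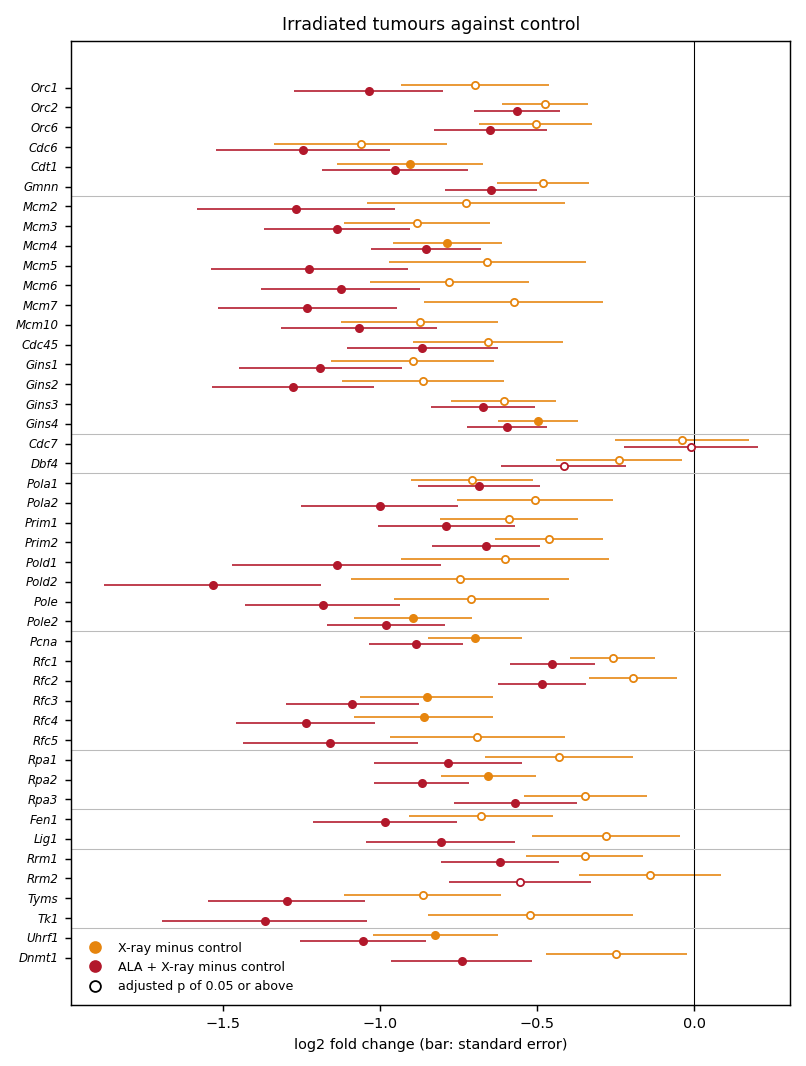
Log2 fold change of each replication gene (rows, by subgroup) in X-ray and in the combination against the same control tumours, with bars of 1 standard error; filled points passed an adjusted p of 0.05 and open points did not. Of the combination points 42 are filled, all but Cdc7, Dbf4 and Rrm2, and of the X-ray points 9.

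**Figure D3:**
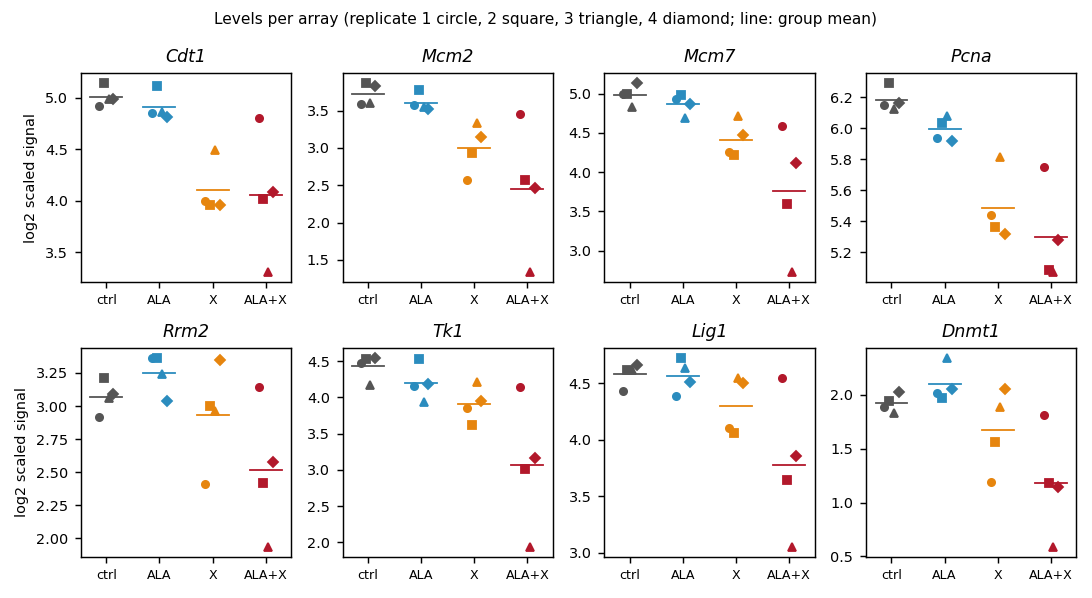
Log2 scaled signal of 8 replication genes in each tumour, by group, with the group mean as a line and a symbol for each replicate number. Replicate 1 of the combination (circle) is the highest of its group and replicate 3 (triangle) the lowest, with replicate 2 close to it in Pcna, and Rrm2, Tk1, Lig1 and Dnmt1 overlap control with X-ray alone.

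Most members shared 1 order of the group means. In 37 of 45 members the group means ran, from low to high, the combination, X-ray, ALA and control, and in 6 more the order was the same but for ALA above control. The lowest mean lay with the combination in 43 members. The share of all genes with these orders was not counted. Of all genes, 59.6% were below 0 in the combination against X-ray and 50.4% in ALA against control. In limma these 2 comparisons called 0 members each (2.07% and 0% of all genes). Within slide 1, 0 of 45 members were lower with the combination than with X-ray. Against control the X-ray means of the subgroups lay between -0.73 (helicase) and -0.47 (nucleotide supply), with the kinase apart at -0.14, and the combination means between -1.04 and -0.74, with the kinase at -0.21. Differences between subgroups were not tested, and the SD over the tumours of the combination was 0.42 to 0.61 in the 8 other subgroups. The fitted level was at least 2-fold lower in 1 member with X-ray, Cdc6, whose shown probe did not pass, and in 20 with the combination. The shares of all genes at that mark were not counted.

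**Figure D4:**
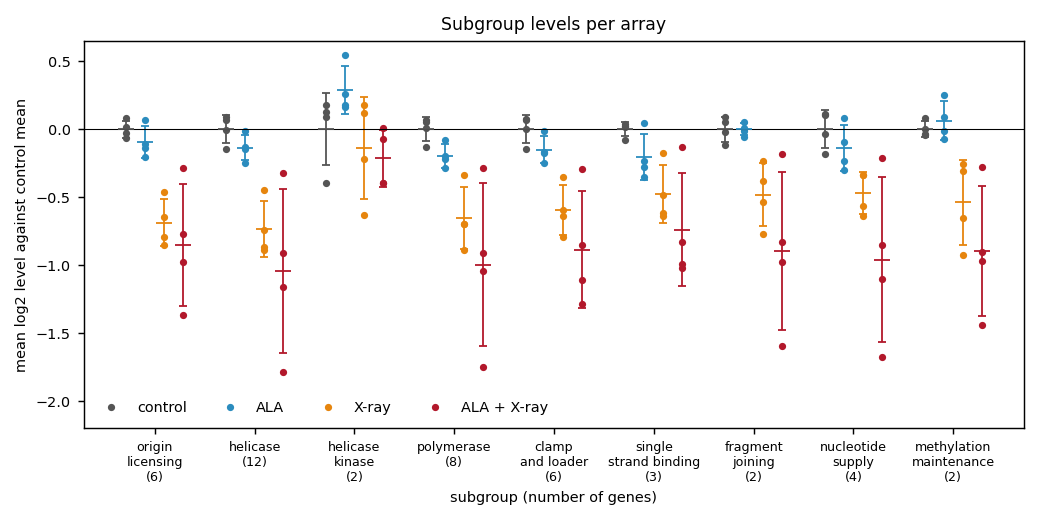
Mean log2 level of each subgroup's genes on each array, relative to each gene's control mean; points are tumours, dashes the group mean and bars the SD (n = 4). In every subgroup but the kinase the X-ray tumours lie below the control mean, and the combination tumours spread the most.

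The count of calls with X-ray alone changed with single arrays, while the members' median kept its sign. The median of the 45 members stayed between -0.77 and -0.58 without any 1 array, but 0 members were called without any 1 of the 4 control arrays or without X-ray replicate 1, 2 or 4, where 1 to 242 of all genes were called, and 3 were called without ALA replicate 1 or 4. Without those ALA arrays 2.01% and 1.74% of all genes were called. The count was 14 without X-ray replicate 3 (5.43% of all genes called) and 4 without replicate 2 of the combination (2.7%). It was 25 without replicate 1 of the combination (7.06%) and 23 without its replicate 3 (6.08%). All 4 groups share 1 estimate of spread, and the median SD of a member was 0.11 in control, 0.14 with ALA, 0.24 with X-ray and 0.53 with the combination, and a fit on the X-ray and control arrays alone called 22 members. Scaling each array to its median, or using no filter on dim probes, gave 0 calls, with 28 and 3 of all genes called. Within slides 1 to 4 the members' median difference was -0.72, -0.91, -0.23 and -0.71, and 45, 45, 39 and 42 of 45 members were lower with X-ray. Over all genes these medians were -0.12, -0.06, 0.02 and 0.03.

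For the combination against control, 30 to 43 members were called without any 1 array, and 13 in a fit on the arrays compared alone. Without a whole slide the count was 44 (slide 1), 0 (slide 2), 27 (slide 3) and 2 (slide 4). Of all genes 33 (0.214%), 1715 (11.1%) and 391 (2.54%) were called without slides 2, 3 and 4, against 24.9% in the main fit. No share of all genes is set beside the counts without 1 array or without slide 1, so those counts cannot be read alone. Within slides the median difference was -0.26, -1.07, -1.48 and -0.94, and 38, 45, 45 and 44 members were lower. Over all genes these medians were -0.002, -0.16, -0.01 and -0.15. The combination against ALA gave medians of -0.17, -1.09, -1.31 and -0.71 within slides (0.04, -0.19, -0.08 and -0.24 over all genes). Its 39 calls became 23 without ALA replicate 2 (18.7% of all genes called), 22 without replicate 2 of the combination (15.3%) and 23 without its replicate 3 (14.4%). They became 9 with arrays scaled to their medians (12.3%) and 5 in a fit on the arrays compared alone (10.3%). Without slides 1 to 4 they became 43, 0, 5 and 1, where 4.25%, 4.3% and 3.7% of all genes were called without slides 2, 3 and 4. No share of all genes is set beside the 43.

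The difference between the irradiated groups had opposite signs on different slides. The members' median in the combination against X-ray was -0.25, against -0.08 over all genes, and 43 of 45 were below 0 (59.6% of all genes), but in 0 members did the tumours of the groups separate (3.68% of all genes). Within slide 1 the median was 0.47 and 0 of 45 members were lower, whereas within slides 2, 3 and 4 it was -0.28, -1.13 and -0.25, with 43, 45 and 38 lower. Over all genes the medians within slides 1 to 4 were 0.11, -0.14, -0.03 and -0.24, so on slide 4 the members lay close to all genes. Replicate 1 of the combination was the highest of its group in 44 of 45 members and lay above all X-ray tumours in 30, and replicate 3 was the lowest of its group in 40 and of all 16 arrays in 39. The 5 members at an unadjusted p under 0.05 were Mcm7, Pold2, Lig1, Tk1 and Dnmt1, with adjusted p of 0.189, 0.192, 0.198, 0.148 and 0.208. Without replicate 1 of the combination 18 members were called lower, among 20.4% of all genes called, and without slide 1 12 were, among 19.4% of all genes; 0 were called without any other array. With array weights 2 members were called, Mcm7 and Tk1, and 14.1% of all genes.

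**Figure D5:**
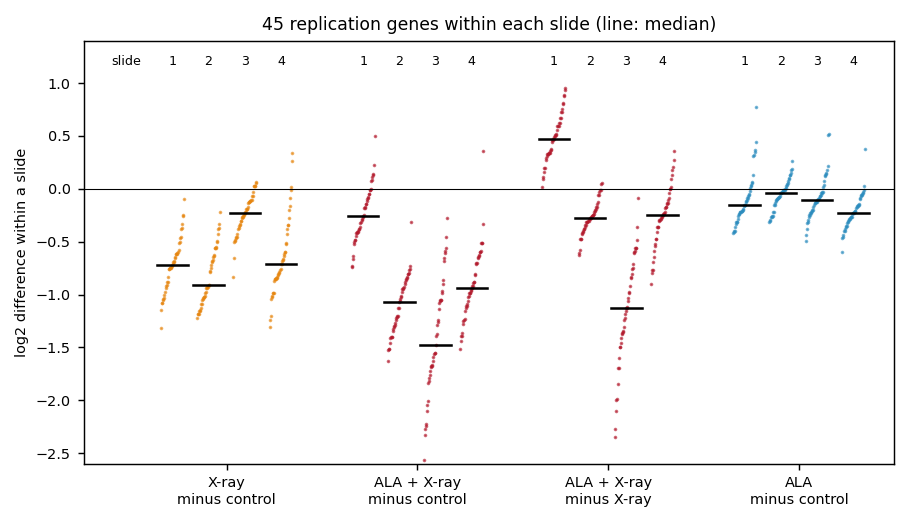
Differences of the 45 replication genes between the arrays of 1 slide, for 4 comparisons and slides 1 to 4; each point is a gene, sorted, and the line is the median. The combination minus X-ray lies above 0 on slide 1 and below it on slides 2 to 4 (medians 0.47, -0.28, -1.13 and -0.25), and ALA minus control stays near 0.

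With ALA alone the members lay nearest to control. Their median was -0.14, 38 of 45 were below 0 (50.4% of all genes), and adjusted p ran from 0.811 to 0.999. In 3 members, Pola1, Prim1 and Pcna, the ALA tumours lay below control without overlap (2.51% of all genes). Within slides the median was -0.15, -0.04, -0.11 and -0.23 (-0.06, 0.02, -0.01 and 0.03 over all genes). The largest differences were -0.41 in Tyms (95% interval -0.94 to 0.13) and -0.31 in Pola1, and the highest was 0.30 in Cdc7. The interaction, the combination difference beyond the sum of the ALA and X-ray differences, called 0 of 45 members in limma (1.23% of all genes, 0.331% lower and 0.896% higher), with 0 at an unadjusted p under 0.05 and a median of -0.18, 36 members being below 0 (59.1% of all genes). Its 95% interval was -1.38 to 0.53 for Mcm2 and -0.45 to 0.45 for Pcna.

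Some markers of other cells also differed between the groups. The 10 macrophage markers had a summed level of 5.94 to 6.79 in control, 3.62 to 5.28 with ALA, 4.24 to 6.69 with X-ray and 7.20 to 8.12 with the combination, and of the 10, 3 were called higher in the combination against control, 6 against X-ray, 10 against ALA and 9 in the interaction. The 7 fibroblast markers ran from 4.78 to 6.72, 3.99 to 6.63, 4.87 to 6.11 and 5.90 to 8.72 in the same order, with 0 called against control in limma, 3 at an unadjusted p under 0.05 with the combination, and 6 of 7 called higher in the combination against ALA. In the same order the 10 skeletal muscle markers ran from 0.41 to 8.07, 0.78 to 2.34, 1.15 to 4.55 and 0.50 to 9.57, with 0 called in any comparison. The 5 endothelial markers ran from 3.101 to 3.36, 2.43 to 3.06, 2.58 to 2.97 and 2.72 to 3.92, and the 3 measured erythroid markers from 4.48 to 6.01, 6.56 to 8.34, 3.36 to 8.51 and 3.04 to 4.37. The only calls were 1 endothelial marker lower in X-ray against control and 2 erythroid markers lower in the combination against ALA. Of the 3 adipocyte and 2 keratinocyte markers measured, 0 were called. Of 7 T and NK cell markers 3 passed the filter, and Cd4 and Ncr1 were above background on 0 arrays. The sum of the 3 that passed ran from -3.44 to -1.57 in control, -3.88 to -1.75 with ALA, -3.34 to 1.02 with X-ray and -1.56 to 1.45 with the combination. In the combination against control 1 of 3 was called higher. Cd3d and Nkg7 were each above background on 4 combination arrays, but on 0 and 1 control arrays, and passed the filter only through the combination. Neither the sum nor the call can therefore serve as a test. The fibroblast marker Pdgfra was above background on 3 combination arrays, 1 control array and 0 ALA or X-ray arrays. The muscle marker Pvalb was so on 3 combination, 2 control, 1 X-ray and 0 ALA arrays. Both passed the filter only through the combination and are in the sums given here, and Pvalb is also in the muscle covariate. The fibroblast sum and calls include Pdgfra and cannot serve as a test either. In replicate 1 of the combination, where the members were least lowered, the macrophage, fibroblast and muscle sums were 7.20, 5.90 and 0.50, the lowest of that group. In replicate 3, where the members were lowest, the sums were 8.12, 7.28 and 9.57, and the fibroblast sum was higher in replicates 2 and 4 (7.58 and 8.72). The melanocyte sums of replicates 1 and 3 of the combination were 10.34 and 10.31. When the muscle level entered the fit as a covariate, 41 members were called in the combination against control and 20 in X-ray against control (5.44% of all genes). No share of all genes is set beside the 41, so that count cannot be read alone. In the combination against ALA 0 were called (2.86% of all genes), and the median was -0.62. The part of macrophages, fibroblasts and T and NK cells in the members' differences was not tested.

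The second probes of the members were also lower. Of the 62 probes 53 were above background on all 16 arrays, 1 on 12 and 8 on none. The 9 measured probes that were not the brightest of their gene were all below 0, from -1.54 to -0.23 with X-ray and from -1.55 to -0.77 with the combination, against control.

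Other genes of the replication pathway followed with exceptions. Of 44 listed, 43 were found by name and passed the filter. With X-ray 7 were called lower and 0 higher (1.38% and 1.99% of all genes), with a median of -0.47. With the combination 27 were lower and 1 higher (15.1% and 9.77% of all genes), with a median of -0.69. The 1 higher was Pold4, which encodes a small polymerase delta subunit, at 0.68 (adjusted p = 0.0371). Dtl, whose product targets Cdt1 for degradation on the clamp, fell by 1.04 (adjusted p = 0.0208) with X-ray. The flap-processing nuclease gene Dna2 fell by 0.90 (adjusted p = 0.0224), the ribonuclease H2 gene Rnaseh2b by 0.70 (adjusted p = 0.0238), the uracil glycosylase gene Ung by 0.73 (adjusted p = 0.0244) and the fork protection gene Tipin by 0.67 (adjusted p = 0.0299). Between the irradiated groups 0 of 43 were called in limma (2.07% of all genes). An unadjusted p under 0.05 was reached by 7 of the 43, and by 3566 of all 15399 genes. Those of smallest p among the 43 were the histone chaperone gene Ssrp1, -0.45 (adjusted p = 0.102), Orc5, -0.34 (adjusted p = 0.112), the topoisomerase gene Top2a, -0.85 (adjusted p = 0.116), and Rnaseh2a, -0.29 (adjusted p = 0.185).

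Outside the replication genes, Cdkn1a, which encodes the inhibitor p21, read 1.85, 2.40, 1.92 and 1.94 in control, 1.34, 1.54, 1.70 and 1.41 with ALA, 4.13, 3.50, 3.13 and 3.40 with X-ray and 3.62, 3.50, 3.79 and 3.02 with the combination. The irradiated tumours lay above all others, with 1.52 (adjusted p = 0.0143) with X-ray and 1.45 (adjusted p = 0.00193) with the combination, and -0.06 between them (95% interval -0.51 to 0.39). Mki67, the proliferation antigen Ki-67, read 4.95, 5.27, 4.95 and 5.02 in control, 5.00, 5.21, 4.87 and 4.96 with ALA, 4.21, 4.50, 5.11 and 4.93 with X-ray and 5.01, 3.74, 3.02 and 4.54 with the combination. Replicate 1 of the combination lay in the control range and replicate 3 lowest of all. Mki67 gave -0.36 (adjusted p = 0.556) and -0.97 (adjusted p = 0.0448). Top2a, which is not outside them but among the other replication genes above, gave -0.47 (adjusted p = 0.369) and -1.32 (adjusted p = 0.00876).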

How the data were processed

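RNA of 16 tumours was hybridised to 1-colour (Cy3) Agilent arrays. Per the file headers, the deposited intensity is Feature Extraction's processed signal (version 10.7.3.1 in the headers, 9.5.3.1 in the submitters' processing notes), with its flags for background and saturation. From it the log2 signal minus the array's 75th percentile over 43379 non-control spots was computed. The authors' deposited value table, a linear intensity of the same arrays whose scaling is not stated in the sources used here, served as an alternative. Spots of a probe were averaged, probes had to be well above background on 4 of 16 arrays, and a gene took its brightest probe. Arrays carry no counts, so their number limits the precision.

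A linear model in limma 3.58.1 (R 4.3.3) with 4 group means gave 6 comparisons, moderated p-values adjusted by Benjamini-Hochberg over 15399 genes, and a threshold of 0.05. Intervals are 95% and unadjusted. The script was tested on simulated data. The 45 members, the marker lists and the 44 other replication genes were chosen with earlier results of these data known. Tumour by tumour values are given, in each subgroup, for the gene of smallest p in X-ray against control, that of smallest p between the irradiated groups and, in subgroups of 6 or more, that of largest p in the combination against control, and for Pcna, Mcm2, Rrm2 and Dnmt1. Promoters of the other such genes are not printed, for length, and 8 members had no promoter entry. Same-numbered arrays shared a slide, and the correlation of their deviations had a median of 0.06 over 24 pairs and was over 0.1 in 9. For arrays of different number the median was -0.006 over 72 pairs, and 20 were over 0.1. The main fit did not take the numbers as pairs, though 11 of 16 arrays correlated best with their own number. The slide as a block was fitted as an alternative, and differences within slides are given as description. The alternatives changed the background correction, scaling, filter, probe choice, arrays fitted, array weights, slide block and a muscle covariate, and left out each array and each slide. A gene that the naming rule picks among the other replication genes is not reported here.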

Additional observations from a re-analysis of the deposited data

Results flagged for a closer look

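Of 180 sets of 4 tumours, 1 for each of the 45 genes in each group, 10 held a tumour whose gap to the nearest other was past Dixon's 95% critical value as a share of the range, and chance gives about 1 in 20. All are log2 levels. Among the control tumours, Cdc45 read -0.093 in replicate 1 (0.31 to 0.36 in the others), Dbf4 0.39 in replicate 1 (0.93 to 0.99) and Prim2 2.73 in replicate 2 (2.56 to 2.59). With ALA, Orc2 read 2.10 in replicate 3 (2.42 to 2.47), Mcm10 3.66 in replicate 2 (3.45 to 3.47) and Rpa1 4.17 in replicate 2 (3.69 to 3.76). With X-ray, replicate 3 stood above the others in Cdt1 (4.49 against 3.96 to 4.00) and Pola1 (1.31 against 0.68 to 0.74). With the combination of ALA and X-ray, replicate 1 stood above the others in Gins4 (2.24 against 1.72 to 1.81) and Rpa1 (3.97 against 2.91 to 3.08).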

How the results depend on the processing

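No called value changed sign, and 0 settings called a member higher. In X-ray against control the 9 calls became 36 with array weights (19.2% of all genes called), 22 in a fit on the arrays compared alone (4.63%), 20 with the skeletal muscle level as covariate (5.44%), 16 with a filter on all 16 arrays (5.53%), and 0 with median scaling or without a filter. In the combination against control the 42 calls became 13 on the arrays compared alone (10.4%), and 12 members were called in all 12 alternatives. The share of all genes called in all 12 was not counted. In the combination against ALA the 39 calls became 9 with median scaling (12.3%), 5 on the arrays compared alone (10.3%) and 0 with the muscle covariate (2.86%). In the combination against X-ray 2 members were called with array weights (14.1% of all genes). The median of ALA against control moved from -0.14 to -0.26 with median scaling, where that of all genes moved to -0.12, and to -0.27 with the covariate. With the covariate the interaction median turned from -0.18 to 0.11, and that between the irradiated groups moved from -0.25 to -0.14. The cause of these changes was not tested. With the slide as a replicate block the calls were 7, 41, 36, 0 and 0 in X-ray, the combination against control, the combination against ALA, the combination against X-ray, and ALA. No share of all genes is set beside these calls. Of the 16 arrays, 11 correlated best with their own number.

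Without any 1 array the calls ran from 0 to 25 (X-ray), 30 to 43 (the combination), 0 to 18 (between the irradiated groups) and 22 to 44 (the combination against ALA), and the medians from -0.77 to -0.58, -1.12 to -0.75, -0.47 to -0.11 and -1.13 to -0.64. For ALA the calls stayed at 0 and the median ran from -0.20 to -0.10, and for the interaction they stayed at 0 and the median ran from -0.37 to 0.05. Without any 1 slide the calls ran from 0 to 21, 0 to 44, 0 to 12 and 0 to 43, and the medians from -0.75 to -0.57, -1.18 to -0.75, -0.55 to -0.04 and -1.11 to -0.63. The interaction then had 0 to 1 calls, with medians from -0.42 to 0.12. The share of all genes called differed between these fits and is not set beside these ranges.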
